A study of Mus musculus with 6 samples.

Results

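A group of 6 genes whose products are best known from epithelia, endothelium and extracellular matrix was examined in converted double negative T cells (cDNT) treated with IL-10. The genes were Cdh1, Epcam, Cdh17, Frem2, Fam20a and Esm1, out of 29393 genes in the deposited count table. They were picked because they moved with IL-10 in these same libraries, so their own differences between the groups are given as a description, without a test. The tests concern their relatives, binding partners and regulators and the cell type markers, which were listed by function. These lists were made with earlier results of these data known.

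The cDNT were T cells of C57BL/6 mice that carry neither CD4 nor CD8. According to the study's methods, CD4+CD25- T cells from spleens and lymph nodes of CD45.1 mice were converted in coculture with mature dendritic cells in the presence of IL-2, and the converted cells were sorted. The W/ IL-10 group received IL-10 at 50 ng/ml for 24 h and the W/O IL-10 group did not, with 3 libraries in each, called treated and control libraries here. The methods also name anti-CD3/CD28 antibodies for the stimulation, whereas the labels give adult mice, spleen and IL-10 alone. Nothing states whether the libraries of a group came from separate cultures or mice, so their spread may be technical. The libraries held 21619420 to 23967088 counts, and a floor of 3 counts was set as the least that can be told from 0. In CPM, the count of a gene relative to the total of its library, this floor was 0.123 to 0.146, for counting error only.

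Cdh1 encodes E-cadherin, which holds neighbouring epithelial cells together by binding to itself and is tied to the actin skeleton by catenins. E-cadherin is also a ligand of lymphocyte receptors, among them the integrin with the CD103 chain and the inhibitory receptor KLRG1. Cdh17 encodes the liver-intestine cadherin, and Epcam the epithelial cell adhesion molecule, a surface glycoprotein that is cleaved by membrane proteases. FREM2 is a large protein of the Fraser complex in basement membranes. FAM20A is a pseudokinase of the secretory pathway that partners the kinase FAM20C, and ESM1 (endocan) is a secreted proteoglycan of activated endothelium that binds the lymphocyte integrin LFA-1.

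Cdh1 and Epcam were lower W/ IL-10, and Cdh17, Frem2, Fam20a and Esm1 were higher. In all 6 genes the CPM of the groups did not overlap, which was also the case for 22.6% of the 14916 genes tested. Over all tested genes, 1.45% had a fold change of at least 1.5 with an adjusted p-value under 0.05 in the quasi-likelihood test of edgeR, the rule used here for a call. That rule was met by 5 of the 6 genes, 4 of them higher and 1 lower W/ IL-10, where 0.778% of all tested genes were called higher and 0.677% lower. At any fold change 2.19% had an adjusted p under 0.05, and at any p 9.92% had a fold change of at least 1.5. Since the genes were picked on this contrast, nothing is read from these counts. In bulk RNA, fewer cells of a type and less RNA per cell cannot be told apart.

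**Figure D1:**
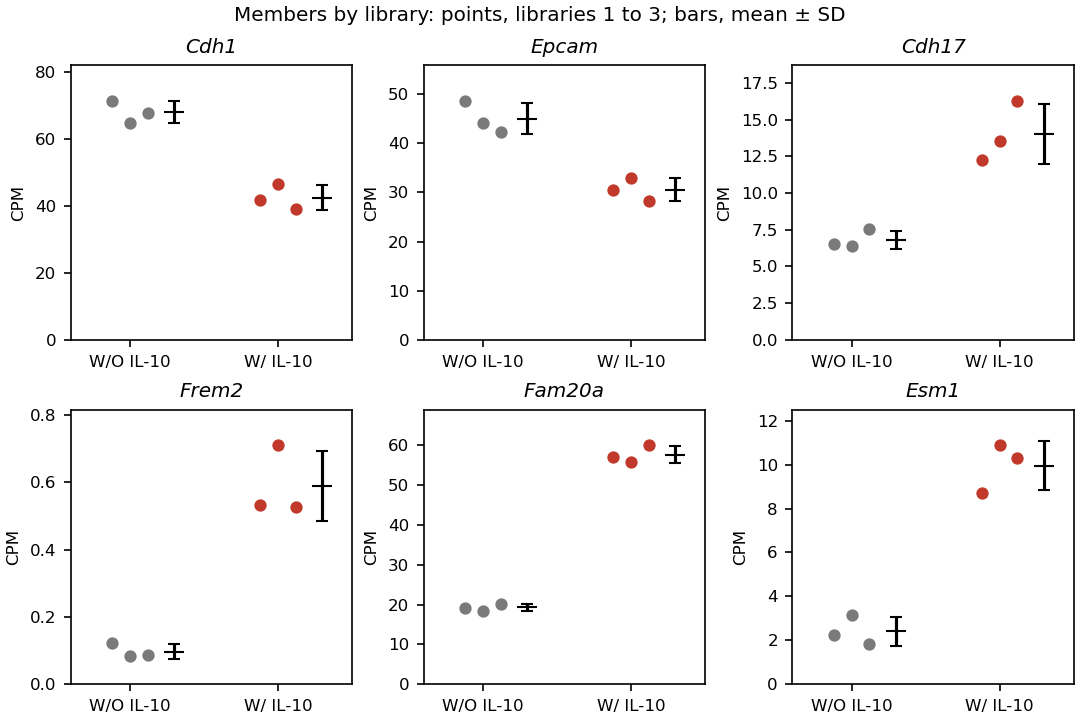
CPM (scaled with TMM factors, linear axes from 0) of the 6 genes in each library, with grey points for W/O IL-10, red points for W/ IL-10, and bars for the mean ± SD of 3 libraries. Cdh1 and Epcam sit lower W/ IL-10 and the other 4 genes sit higher, with no overlap of the groups in any panel.

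Cdh1 (ENSMUSG00000000303, chromosome 8 of GRCm38, 106603351 to 106670246, plus strand) had 71.4, 64.9 and 68.0 CPM in control replicates 1, 2 and 3. In treated replicates 1, 2 and 3 it had 42.0, 46.6 and 39.1 CPM. All 3 treated libraries were below all 3 control libraries. Behind the values were 1570 to 1748 counts in each control library and 864 to 1049 in each treated one. The mean went from 68.1 ± 3.24 to 42.5 ± 3.78 CPM (SD, n = 3). On the log2 scale this is a difference of -0.68, with 0.09 as its standard error. The E-cadherin transcript was thus 37.5% lower W/ IL-10.

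Epcam (ENSMUSG00000045394, chromosome 17, 87635979 to 87651129, plus strand) had 48.6, 44.2 and 42.3 CPM in control replicates 1, 2 and 3. The treated libraries had 30.5, 33.0 and 28.2 CPM in the same order. The fitted level was 1.47-fold higher W/O IL-10, just under the fold change of the rule for a call, where Cdh1 at a log2 difference of -0.68 stood inside it. Among the treated libraries Epcam followed the order of Cdh1, with replicate 2 the highest and replicate 3 the lowest for both genes. Among the control libraries the orders differed, with replicate 2 the lowest for Cdh1 and replicate 3 the lowest for Epcam. Per kilobase of exon, the Cdh1 level was 0.705 to 0.771 times the Epcam level in the W/O IL-10 libraries and 0.661 to 0.678 times in the W/ IL-10 libraries. The transcripts of these adhesion molecules were thus lower together, by 37.5% for Cdh1 and 32.2% for Epcam.

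Cdh17 (ENSMUSG00000028217, chromosome 4, 11758147 to 11817895, plus strand) went in the other direction. It had 6.50, 6.37 and 7.54 CPM in control replicates 1, 2 and 3 and 12.2, 13.5 and 16.3 CPM in treated replicates 1, 2 and 3. The lowest treated library was 1.62 times the highest control library. The log2 fold change was 1.04 (standard error 0.15), from 154 to 175 counts in each control library and 252 to 371 in each treated one. With Cdh1 lower and Cdh17 higher, the per-kilobase level of Cdh1 was 9.85 ± 0.97 times that of Cdh17 W/O IL-10 and 3.02 ± 0.58 times in the treated libraries (SD, n = 3).

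Frem2 (ENSMUSG00000037016, chromosome 3, 53513938 to 53657355, minus strand) was at the edge of detection. It had 3, 2 and 2 counts in control replicates 1, 2 and 3 and 11, 16 and 12 counts in treated replicates 1, 2 and 3. No control library was above the floor of 3 counts, and every treated library was. Summed over the libraries these are 7 and 39 counts, a ratio of 6.07 after scaling, with an exact (Clopper-Pearson) 95% interval of 2.69 to 16.1 that covers counting error only and is no test of IL-10. Per kilobase of its long transcript Frem2 ranked 14898 of 14898 genes W/O IL-10 and 14837 with it, a ranking of the tested genes alone, which Frem2 entered through its treated libraries.

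Fam20a (ENSMUSG00000020614, chromosome 11, 109669749 to 109722279, minus strand) had little spread between replicates. It had 19.2, 18.4 and 20.2 CPM in control replicates 1, 2 and 3 and 57.1, 55.8 and 60.0 CPM in treated replicates 1, 2 and 3. The replicate spread was 4.76% of the mean W/O IL-10 and 3.74% with it, against a 2.99-fold difference between the groups. The log2 fold change was 1.58 (standard error 0.08), from 444 to 471 counts in each control library and 1175 to 1369 in each treated one. FAM20A has no catalytic activity of its own, and its known role is as a partner of FAM20C in the phosphorylation of secreted proteins.

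Esm1 (ENSMUSG00000042379, chromosome 13, 113209659 to 113218098, plus strand) had 2.25, 3.14 and 1.81 CPM in control replicates 1, 2 and 3 and 8.70, 10.9 and 10.3 CPM in treated replicates 1, 2 and 3. The counts were 42 to 76 and 179 to 245 per library, and the lowest treated library was 2.77 times the highest control library. The fitted fold change was 4.15. The gene lies within the span of Gzmk, a granzyme gene on the opposite strand (chromosome 13, 113171608 to 113225908), and no exon base is shared. Gzmk had 55.1 ± 5.41 CPM W/O IL-10 and 62.8 ± 1.56 CPM in the treated libraries (SD, n = 3, adjusted p = 0.360, edgeR). The sources used here do not state whether strand was used in counting, and the part of unspliced Gzmk RNA in the Esm1 counts was not tested. No exon of the 6 genes overlaps an exon of another gene, and none of the 6 shares a 50-base stretch with transcripts of another gene.

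Compared per kilobase of exon, Epcam had the highest level of the 6 genes W/O IL-10, with 20.5 ± 1.47 CPM per kilobase, ahead of Cdh1 with 14.9 ± 0.71 (SD, n = 3). Fam20a followed with 5.30 ± 0.25, Cdh17 with 1.52 ± 0.14 and Esm1 with 1.14 ± 0.32 CPM per kilobase. The libraries of Cdh17 and Esm1 overlapped in this group, so their order there is not resolved. W/ IL-10 the order changed. Fam20a then had the highest level with 15.9 ± 0.59 CPM per kilobase, above Epcam with 13.9 ± 1.08 and Cdh1 with 9.30 ± 0.83, and Esm1 with 4.75 ± 0.54 stood above Cdh17 with 3.13 ± 0.46 (SD, n = 3). Among the 14898 tested genes with an exon length, Epcam went from rank 2679 to 3921 and Cdh1 from 3628 to 5371, while Fam20a went from rank 7352 to 3521 and Esm1 from 11321 to 7771. Cdh1 and Epcam, although named for epithelia, were thus above most tested genes in the control cDNT.

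The bases just upstream of the start sites are shown for Epcam, which was lower, and for Esm1 and Fam20a, which were higher. A window of 250 bases was found in the RefSeq table of GRCm38.p6 for 4 of the 6 genes. The Epcam window is chr17:87635729-87635978 on the plus strand, the Esm1 window chr13:113209409-113209658 on the plus strand, and the Fam20a window, 209 bases that end before the annotated gene, chr11:109722280-109722488 on the minus strand. Each runs from 5′ to 3′ toward the gene, and capitals mark the matches of the searched motifs on either strand, which do not overlap each other.
Epcam: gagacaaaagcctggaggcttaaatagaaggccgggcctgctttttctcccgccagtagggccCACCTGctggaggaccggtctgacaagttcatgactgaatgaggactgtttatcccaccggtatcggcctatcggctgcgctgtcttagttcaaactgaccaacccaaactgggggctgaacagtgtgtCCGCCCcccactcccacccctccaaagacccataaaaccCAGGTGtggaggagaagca
Esm1: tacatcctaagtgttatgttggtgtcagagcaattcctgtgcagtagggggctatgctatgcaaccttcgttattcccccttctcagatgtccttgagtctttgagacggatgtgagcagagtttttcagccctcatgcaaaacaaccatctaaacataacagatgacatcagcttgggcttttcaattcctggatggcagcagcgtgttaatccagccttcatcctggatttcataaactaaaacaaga
Fam20a: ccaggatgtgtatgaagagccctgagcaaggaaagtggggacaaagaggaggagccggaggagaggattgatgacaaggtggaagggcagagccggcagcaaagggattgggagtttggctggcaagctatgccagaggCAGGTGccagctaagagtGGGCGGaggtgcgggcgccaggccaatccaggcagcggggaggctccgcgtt

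The motifs were the STAT motif TTCNNNGAA, the E-box CACCTG, the GC box GGGCGG and the TATA box TATAAA. The Epcam window holds CACCTG 187 bases and its reverse complement 19 bases before the gene, where 17.2% of all 32851 windows of 250 bases hold at least 1 of them. It also holds the reverse complement of the GC box, a motif found in 32.7% of all windows. The Fam20a window holds 1 E-box match and 1 GC box match. None of the 4 motifs was matched in the Esm1 or the Frem2 window, and neither the STAT motif (7.02% of all windows) nor the TATA box (12.4%) was matched in any of the 4 windows. The windows also differed in composition, with 56.4% GC for Epcam, 61.7% for Fam20a and 44.0% for Esm1. A match is a description of the letters, not evidence of a bound site.

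The rest of the cadherin family was used to ask how the pair of member cadherins stood among its relatives. Besides Cdh1 and Cdh17, 41 family genes were found in the table and 13 had enough counts to be tested. None of the 13 was called by edgeR or by DESeq2, and 3 had an unadjusted p under 0.05 in edgeR, with a median log2 fold change of -0.02 against 0.01 over all tested genes. The desmosomal cadherin Dsc2 had the highest level in the family in both groups, with 34.3 ± 4.84 CPM per kilobase W/O IL-10 and 34.1 ± 4.18 in the treated libraries (SD, n = 3). Celsr1, an atypical cadherin of planar cell polarity, had 61.0 ± 6.59 and 76.4 ± 9.72 CPM (SD, n = 3, adjusted p = 0.221, edgeR). Cdh1 was second to Dsc2 in both groups, well above the third gene Clstn1 W/O IL-10, while W/ IL-10 its level of 9.30 ± 0.83 and that of Clstn1 (8.34 ± 1.26 CPM per kilobase) lay within their spread. Cdh1 made up 20.0% to 21.2% of the summed per-kilobase level of the family in the W/O IL-10 libraries and 12.5% to 15.2% in the W/ IL-10 libraries, and Cdh17 1.86% to 2.40% and 3.80% to 5.32%. N-cadherin (Cdh2) and VE-cadherin (Cdh5) had at most 17 and 14 counts in any library.

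**Figure D2:**
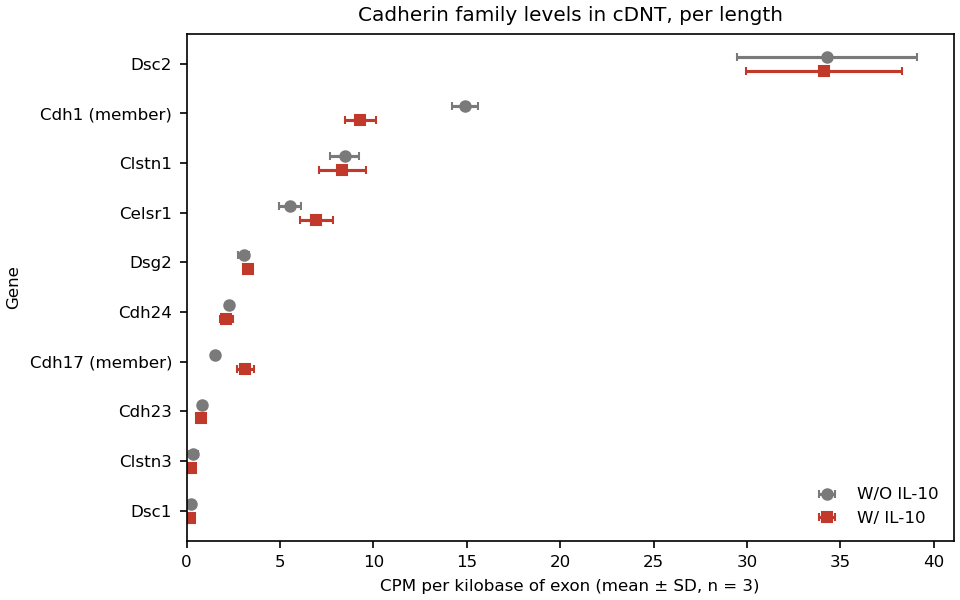
Mean level per kilobase of exon (CPM per kilobase, linear axis, bars ± SD, n = 3) of the 10 cadherin family genes above 0.2 in either group, grey circles W/O IL-10 and red squares W/ IL-10. Dsc2 is highest in both groups at 34.3 and 34.1, Cdh1 is second and moves from 14.9 to 9.30, and Cdh17 moves from 1.52 to 3.13.

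The catenins and junction adaptors link cadherins to the cell skeleton. Of these 22 genes 16 were tested. None was called by edgeR, DESeq2 called 1, and 6 had an unadjusted p under 0.05 in edgeR. Beta-catenin (Ctnnb1) had 266 and 270 CPM on average in control and treated libraries (adjusted p = 0.942, edgeR), and alpha-catenin (Ctnna1) had 201 and 209 CPM (adjusted p = 0.795, edgeR). Pkp3, which encodes plakophilin 3 of desmosomal plaques, rose from 102 ± 5.70 to 136 ± 11.4 CPM (SD, n = 3). Its log2 difference of 0.41 had an adjusted p of 0.0467 from edgeR and did not reach the fold change of a call. The adjusted p from edgeR was 0.0169 without control replicate 1, but 0.204 without control replicate 2, 0.129 without control replicate 3, and 0.0651, 0.142 and 0.216 without treated replicates 1, 2 and 3. Vinculin (Vcl), the actin linker, had 22.1 and 14.6 CPM without overlap of the groups (adjusted p = 0.0849, edgeR). DESeq2 called Vcl.

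Of the genes listed as receptors of the member proteins, none of the 9 tested was called by edgeR, with 6 at an unadjusted p under 0.05. DESeq2 called 1, Itgae. Itgae encodes CD103, the alpha chain of an integrin that binds E-cadherin. It had 790, 652 and 525 counts in control replicates 1, 2 and 3 against 385, 426 and 309 in the treated ones. The groups did not overlap, and the adjusted p from edgeR was 0.0866 at a log2 difference of -0.68. Klrg1, the gene of another E-cadherin receptor, had 138 ± 26.2 and 107 ± 15.6 CPM (SD, n = 3, adjusted p = 0.287, edgeR), with overlapping groups. The LFA-1 chains, to which ESM1 binds, had 956 and 1007 CPM for Itgal (adjusted p = 0.712) and 421 and 498 CPM for Itgb2 (adjusted p = 0.283, edgeR).

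Factors that act on Cdh1 transcription, such as the Snail and ZEB repressors and the Grainyhead activators, had 13 tested genes. None was called by edgeR or DESeq2, and 6 had an unadjusted p under 0.05 in edgeR. The repressor Zeb1 had 41.6 CPM W/O IL-10 and 51.1 CPM W/ IL-10, with no overlap (adjusted p = 0.225, edgeR), and its relative Zeb2 had 31.1 and 25.6 CPM with overlap (adjusted p = 0.338, edgeR). Runx3 and Tcf3, the highest of the list, had log2 fold changes of -0.12 and -0.23 (adjusted p = 0.528 and 0.283, edgeR). Snai2 and Twist1 did not exceed 5 counts in any library.

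Of the 24 tested proteases and inhibitors that act on EPCAM or E-cadherin, none was called by edgeR, DESeq2 called 1 (Timp2), and 4 had an unadjusted p under 0.05 in edgeR. Furin, the convertase that cuts the propeptides of E-cadherin and of many secreted proteins, fell from 354 ± 25.9 to 242 ± 17.6 CPM (SD, n = 3). The log2 difference was -0.55 with an adjusted p of 0.0219 (edgeR), and the adjusted p was 0.0978 without W/O IL-10 replicate 2, 0.101 without W/ IL-10 replicate 1 and 0.138 without W/ IL-10 replicate 3. The sheddase genes Adam10 and Adam17 had adjusted p-values of 0.406 and 0.538 from edgeR. Adam8 was the highest of the list with 858 and 847 CPM (adjusted p = 0.939, edgeR).

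EPCAM partners, among them the tetraspanins and claudins it associates with and the nuclear partners of its cleaved tail, showed no call by edgeR or DESeq2 in 9 tested genes, with 1 at an unadjusted p under 0.05. Cd44 had 183 and 185 CPM (adjusted p = 0.975, edgeR), and the claudin genes Cldn1 and Cldn7 had at most 2 and 11 counts in any library.

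In the basement membrane list, 1 of 15 tested genes was called by edgeR. It rose, and its values are not reported here. Lamc1 had the highest level of the list, with 60.7 and 73.6 CPM (adjusted p = 0.116, edgeR), followed by Lama5 with 38.3 and 42.4 CPM (adjusted p = 0.665, edgeR).

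In the Fraser complex, secretory pathway kinase and proteoglycan lists, no gene with enough counts to be tested was called by edgeR. Of the Fraser complex, Npnt, a basement membrane ligand of integrins, was the gene with enough counts to be tested (28.8 and 24.0 CPM, adjusted p = 0.316, edgeR), and it had an unadjusted p under 0.05. Fras1 and Frem1 had at most 11 and 1 counts in any library. Grip1, an adaptor that the complex needs for delivery to the surface, had 6, 4 and 3 counts in the control libraries and 3, 24 and 32 in the treated ones, with overlap. It was below the filter of the main fit. Without a filter on low counts Grip1 was called higher W/ IL-10 (log2 fold change 2.28, adjusted p = 0.0131, edgeR). Of 6 tested secretory pathway kinases none was called by edgeR or DESeq2, with 1 at an unadjusted p under 0.05. The xylose kinase Fam20b had 9.86 ± 0.44 and 9.27 ± 0.17 CPM per kilobase (SD, n = 3, adjusted p = 0.593, edgeR), so that Fam20a was below Fam20b W/O IL-10 and above it W/ IL-10. Fam20c, the partner of FAM20A, had 18 to 28 counts W/O IL-10 and 12 to 20 W/ IL-10 (adjusted p = 0.515, edgeR). Of 10 tested proteoglycans none was called by edgeR, DESeq2 called 1 (Spock2), and 2 had an unadjusted p under 0.05. Serglycin (Srgn), the granule proteoglycan of cytotoxic cells, had 329 ± 25.4 CPM per kilobase in the control and 382 ± 33.3 in the treated libraries (SD, n = 3, adjusted p = 0.356, edgeR), far above Esm1 in both groups.

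**Figure D3:**
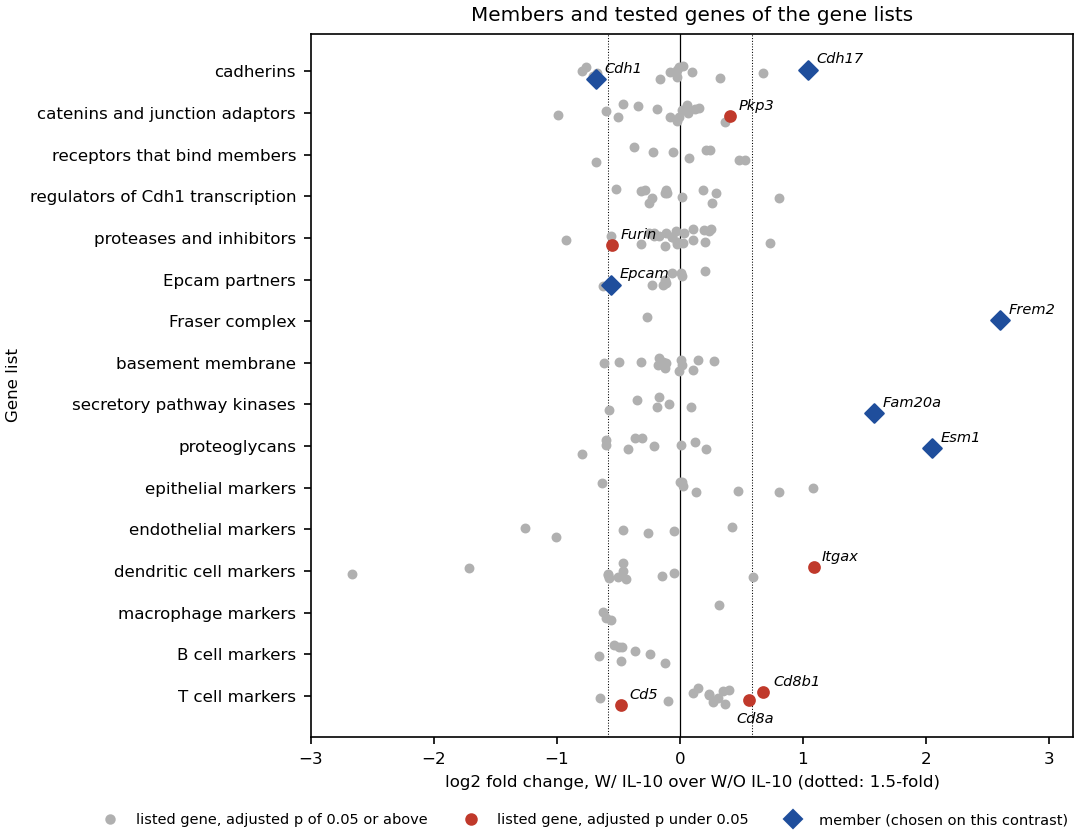
Log2 fold change (W/ IL-10 over W/O IL-10, x axis) of the 6 genes as blue diamonds and of the tested genes of each list as points, red where the adjusted p from edgeR was under 0.05, with dotted lines at a 1.5-fold change. Frem2 (2.60), Esm1 (2.05) and Fam20a (1.58) stand to the right of the tested genes of their lists. The 6 genes were picked for moving with IL-10. The lists were set by function, but with earlier results of these data known. Nothing is read from this position. Besides Frem2, the Fraser complex list had 1 tested gene. The called gene of the basement membrane list is not drawn.

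Over all these lists, each gene counted once and the 6 genes left out, 1 of 115 tested genes (0.870%) was called, near the 1.45% of all tested genes, and 2 rose and 1 fell at an adjusted p under 0.05 (edgeR). The median log2 fold change was -0.09 against 0.01 over all tested genes. The groups did not overlap in 33 of the 115 genes (28.7%), beside 22.6% of all tested genes. DESeq2 called 5 of the 115 genes, beside 359 of all 14916 tested genes. In edgeR 32 of the 115 had an unadjusted p under 0.05. The share of all tested genes with an unadjusted p under 0.05 was not counted. Nothing is therefore read from the counts of unadjusted p, here or in the single lists.

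Markers of other cell types were examined because all 6 genes are used elsewhere. The T cell genes summed to 3496 to 3864 CPM W/O IL-10 and 4472 to 4592 CPM W/ IL-10, and Cd4 had at most 38 counts in a library. Cd8a (107 and 158 CPM) and Cd8b1 (38.1 and 60.8 CPM), the genes of the CD8 chains, rose at an adjusted p of 0.0369 and 0.0306 (edgeR). The transcripts of CD8 were thus present in libraries of cells named for lacking it, and which cells carried them was not tested. For Cd8a the adjusted p from edgeR was 0.141 without control replicate 2 and 0.149 and 0.191 without treated replicates 1 and 3. For Cd8b1 it was 0.109 without control replicate 2 and 0.101, 0.0925 and 0.178 without treated replicates 1, 2 and 3. Cd5 fell, from 62.4 to 44.9 CPM (adjusted p = 0.0467, edgeR), but its adjusted p was 0.0935 and 0.105 without control replicates 2 and 3, 0.169, 0.149 and 0.181 without treated replicates 1, 2 and 3, and 0.0653 with the correction for GC content and length. Of the T cell markers, 1 of 14 tested genes was called, and the median log2 fold change was 0.25.

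The 21 epithelial markers found summed to 50.3 to 53.3 CPM W/O IL-10 and 50.9 to 55.5 CPM W/ IL-10, most of it from Marveld2 and Lgals4. None of 8 tested was called by edgeR or DESeq2, with 1 at an unadjusted p under 0.05. Of these 8 genes 7 had a positive log2 fold change and 1, Krt18, a negative one, with a median of 0.08. Muc1 rose from 0.984 ± 0.205 to 2.08 ± 0.550 CPM (SD, n = 3, adjusted p = 0.143, edgeR). Each treated library stood above each control library for Muc1. The defining keratins were near 0, with at most 7 counts of Krt8, 2 of Krt7, 7 of Krt19 and 15 of Krt18 in any library, beside at least 864 counts of Cdh1 and 627 of Epcam. The 15 endothelial markers summed to 352 to 381 CPM W/O IL-10 and 296 to 315 CPM W/ IL-10, nearly all from Pecam1, which T cells also express. None of 6 tested was called by edgeR or DESeq2, with 1 at an unadjusted p under 0.05, and 5 of the 6 had a negative log2 fold change. Apart from Pecam1, each of these markers had 0 to 30 counts in a treated library, where Esm1 had 179 to 245. In the control libraries they had 0 to 33 counts except for 152 of Vwf in replicate 1, and Esm1 had 42 to 76.

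Dendritic cells were present in the culture from which the cDNT were sorted. The 18 dendritic cell markers found summed to 312 to 395 CPM W/O IL-10 and 251 to 336 CPM W/ IL-10, and 11 of 13 tested had a negative log2 fold change, with a median of -0.46. Much of the sum came from Cd74 (122 and 81.1 CPM), Cst3 (91.8 and 88.9 CPM) and H2-Ab1 (55.3 and 37.1 CPM). Cd74 and H2-Ab1, genes of MHC class II presentation, were highest in replicate 2 of each group, as were the B cell sums given below. The part of B cells in the dendritic cell sum was not tested. Ccl22, a chemokine of mature dendritic cells, had 514, 230 and 137 counts in control replicates 1, 2 and 3 and 78, 40 and 6 in treated replicates 1, 2 and 3 (adjusted p = 0.102, edgeR). Cdh1 and Epcam, which some dendritic cells express, were lower W/ IL-10 as well, and the part of dendritic cells in that was not tested. Markers of dendritic cell subsets ranged widely, with at most 1 count of Clec9a or Siglech, 96 to 170 counts of Zbtb46 and 85 to 147 of Xcr1 in a library. Xcr1 and Itgax were the tested markers with a positive log2 fold change. Xcr1 had 85, 99 and 95 counts in the control libraries and 135, 105 and 147 in the treated ones (adjusted p = 0.184, edgeR). Itgax encodes the integrin chain CD11c, also found on activated T cells, and rose from 20.4 ± 2.06 to 43.2 ± 5.36 CPM (SD, n = 3, adjusted p = 0.00383, edgeR). DESeq2 called 2 genes of this list and edgeR 1.

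**Figure D4:**
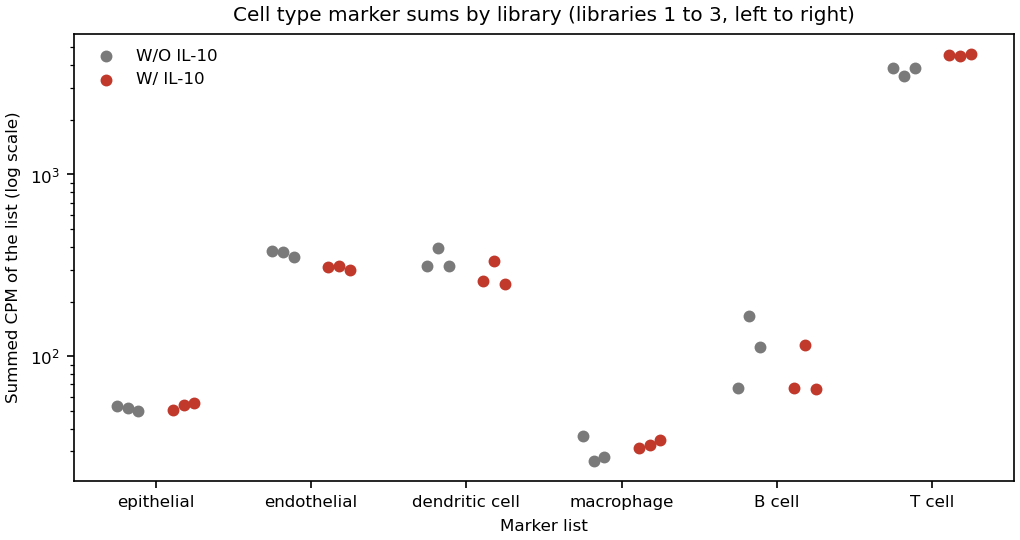
Summed CPM (log axis) of 6 cell type marker lists in each library, grey for W/O IL-10 and red for W/ IL-10, replicates 1 to 3 from left to right in each group. T cell genes (3496 to 4592 CPM) stand far above the other lists, the epithelial sums stay between 50.3 and 55.5 CPM, and the B cell sums vary most between libraries.

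B cell and macrophage markers varied between libraries. The B cell genes summed to 66.6, 166 and 112 CPM in control replicates 1, 2 and 3 and to 66.9, 115 and 66.1 CPM in treated replicates 1, 2 and 3, and replicate 2 was the highest of each group. All 8 tested had a negative log2 fold change, with a median of -0.47, and none was called by edgeR or DESeq2, with 0 at an unadjusted p under 0.05. The 11 macrophage genes summed to 26.7 to 36.2 CPM W/O IL-10 and 31.2 to 34.4 CPM W/ IL-10. Of 4 tested, 3 had a negative log2 fold change, with a median of -0.58 for the 4. These 3, Adgre1, Lyz2 and Cd14, were low, with 1.75, 1.77 and 3.68 CPM W/O IL-10. Cd68, the highest of the list, went the other way, from 22.1 ± 1.46 to 27.5 ± 1.77 CPM (SD, n = 3, adjusted p = 0.159, edgeR). Each treated library stood above each control library for Cd68. None of the 4 was called by edgeR or DESeq2, with 2 at an unadjusted p under 0.05.

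W/O IL-10 replicate 1 stood apart in several listed genes, and those named here were singled out after their values were seen. It had 127 counts of decorin (Dcn), 71 of Sparc, 59 of Timp3 and 152 of Vwf, where the other 5 libraries had at most 9, 9, 18 and 33. Bgn, Tie1 and C1qc had 36, 31 and 21 counts in it and at most 3, 4 and 2 in the others. Not every matrix gene did so, since Lum had 48, 50 and 50 counts in control replicates 1, 2 and 3. The part of other cell types in this library was not tested. Without this library the log2 fold changes were -0.65 for Cdh1, -0.51 for Epcam, 1.00 for Cdh17, 1.57 for Fam20a and 2.0 for Esm1, close to those with it. That of Frem2, 2.80, rests on 2 counts in each remaining control library.

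The genes with the most similar profile over the 6 libraries were found by Pearson's correlation of log2 CPM among genes of at least 1 CPM. All points share the 2 groups, so any gene that differs between them scores high, and the coefficients are a description. For Cdh1 they were Appl2 (r = 0.999), Mpp1 (r = 0.996) and Lhfpl2 (r = 0.994), and for Epcam Dhrs3 (r = 0.996), Lhfpl2 (r = 0.995) and Tpsb2 (r = 0.994). For Cdh17 they were Vim (r = 0.996), Itgax (r = 0.995) and Slc44a2 (r = 0.994). Fam20a was closest to Mxd1 (r = 0.997), Pltp (r = 0.997) and Cd160 (r = 0.996), Esm1 to Pld2 (r = 0.994), Ptpn5 (r = 0.994) and Zbtb32 (r = 0.992), and Frem2 to Pstpip1 (r = 0.995), Srbd1 (r = 0.994) and Pim2 (r = 0.993). Lhfpl2 was thus among the nearest genes of both Cdh1 and Epcam. The similarity was one of profile, not of size, since Appl2 had a log2 fold change of -0.25 where Cdh1 had -0.68.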

How the data were processed

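RNA-seq was done on cDNT, 3 libraries with IL-10 and 3 without. The authors deposited whole-number counts for 29393 Ensembl genes, without normalization. The study's methods name TopHat, Cufflinks and UCSC annotation, whereas the submitters' processing notes name HISAT2, HTSeq and GRCm38. Versions and the use of strand are not given in the sources used here, and the labels and methods name different library kits. No pair of libraries was identical.

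The quasi-likelihood test of edgeR 4.0.16 in R 4.3.3 (TMM scaling, prior count 0) was fitted to the deposited counts of all 6 libraries without a block, for the 14916 genes that reached 10 counts in 3 or more libraries. P-values were adjusted over these genes by the Benjamini-Hochberg method. The fold change of 1.5 and the adjusted p-value of 0.05 are those of the study. CPM use TMM-scaled library sizes, and levels per kilobase use merged exon lengths of GENCODE M21, in which 29332 identifiers were found. DESeq2 1.42.0, upper-quartile factors, other filters, the replicate block, a correction for GC content and length by splines, and each library left out in turn were the alternatives. The fitting steps were tested on simulated counts.

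The members and gene lists were chosen with earlier results of these data known. Named are the members, the called genes, those with an adjusted p-value under 0.05 and the highest genes of each list, defining markers, and the 3 nearest profiles of each member. The values of some listed genes are not reported here. Some further list genes and Gzmk were named after their values were seen. Annotation and plots were made with pandas 2.3.3 and matplotlib 3.10.9 under Python 3.11.15.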

Additional observations from a re-analysis of the deposited data

How the results depend on the processing

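The 6 members kept their direction under each alternative that gave a value. They were picked on this contrast in these same libraries, so the tallies of calls that follow are a description and no test of IL-10. Fam20a and Esm1 met the rule for a call under all 13 alternatives. Cdh1 met it under 11 of 13, all but without W/ IL-10 replicate 1 and without W/ IL-10 replicate 3, and Cdh17 under 10 of 13, all but without W/O IL-10 replicate 2, W/ IL-10 replicate 2 or W/ IL-10 replicate 3. Epcam met it under 1 of 13, without W/O IL-10 replicate 3. Frem2 met it under 4 of the 9 that gave it a value, since a filter of 10 counts in every library, or the loss of a W/ IL-10 library, removed it. With DESeq2, with the replicate block and with each W/O IL-10 library left out, it was not called. Leaving out a library gave log2 fold changes of -0.75 to -0.62 for Cdh1, -0.62 to -0.51 for Epcam, 0.92 to 1.13 for Cdh17, 1.54 to 1.60 for Fam20a, 1.87 to 2.29 for Esm1 and 2.49 to 2.80 for Frem2. The correction for GC content and length moved Fam20a from 1.58 to 1.67, with and without the replicate block.

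Over all tested genes 217 were called, 359 with DESeq2, 639 without a filter on low counts, 354 with the GC and length correction together with the replicate block, and 35 to 254 with a library left out, 35 without W/ IL-10 replicate 3, 57 without W/ IL-10 replicate 1, 75 without W/O IL-10 replicate 2 and 98 without W/ IL-10 replicate 2. In the adhesion and matrix lists 1 gene was called, 5 with DESeq2, 13 without a filter, 3 with the GC and length correction, 5 with that correction and the replicate block, and 0 to 2 with a library left out. The 0 came from edgeR without W/O IL-10 replicate 2, W/ IL-10 replicate 1 or W/ IL-10 replicate 3, where 20, 25 and 17 genes had an unadjusted p under 0.05. The 13 include Grip1, which was higher W/ IL-10. They also include Dcn, Sparc, Timp3, Hspg2, Bgn and Col4a2, low genes with most of their counts in W/O IL-10 replicate 1. Otherwise the cause of these differences was not tested.

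Same-numbered libraries deviated together by correlations of 0.0524, -0.0573 and 0.114, and 4 of 6 libraries correlated best with their own number. These values do not settle whether equal numbers mark pairs. The sources used here state no pairing, so the main fit had no block. With the replicate block 196 genes were called in all and 3 in the lists, Itgae and Timp2 among them, and the adjusted p of Pkp3 was 0.0907 (edgeR). Frem2 rests on at most 3 counts in each control library.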
